A study of Yarrowia lipolytica with 6 samples.

Results

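The transcripts described here were the abundant ones among those that StringTie assembled in the oil yeast Yarrowia lipolytica and that carry its MSTRG identifiers. A StringTie row was kept when its mean over all 6 libraries was at least 100 CPM, a unit that scales the counts of each library to the same total. This left 70 transcripts of 2087 StringTie rows, among 9235 rows in all. The members were thus chosen by their mean level over both strains, and the larger share of StringTie counts in the deletion was known when the question was set. That share is therefore a description and was given no test.

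StringTie builds transcripts from aligned reads, and those with no matching annotated transcript keep an MSTRG number in place of a gene name. Such transcripts can be unannotated genes, untranslated or antisense stretches, or non-coding RNAs, and the number alone does not tell which. Snf1 is the catalytic subunit of the yeast AMP-activated protein kinase, which some yeasts need to grow on certain carbon sources other than glucose. In Y. lipolytica the genes of the large ribosomal RNAs are known to lie in several clusters near chromosome ends.

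The 3 wild type libraries came from CXAU/AI cultures, and 3 came from cultures of a mutant, ∆Snf1, whose gene was removed by homologous recombination. Both strains were precultured for 48 h, set to a starting optical density of 0.05, and grown to log phase over 24 h at 30 °C with shaking at 220 rpm. All 6 cultures, wild type included, then spent 1 h with 2% n-decane, an alkane, and 1% uracil, and 0.1% Triton-X was used to free the cells from the oil. No culture without decane was part of the comparison, and the labels call the libraries of a strain biological replicates.

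Library totals ranged from 32315239 to 38054417 counts. Exactly 1 row, rna-XM_502312.1, had 0 counts in every deletion library and at least 100 in every wild type library, where it held 2546 to 3644. Snf1 itself (YALI0_D02101g) is at a log2 fold change of -11.31 in the authors' deposited table (adjusted p = 1.78e-48), a DESeq2 comparison of the same strains. No member was near a limit of detection, since the lowest count of any member in any library was 134. The files used here give no transcript lengths, so shares of reads are compared and not expression levels of different transcripts. In bulk RNA, fewer cells that express a transcript and less of it per cell cannot be told apart. The use of strand in counting is also unknown here, and a transcript's reads cannot be told apart from those of an overlapping or antisense one.

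StringTie rows together held 7.86%, 5.78% and 9.42% of the counts in wild type replicates 1 to 3. In the deletion they held 22.4%, 14.7% and 20.7%. Every deletion library thus stood above every wild type library, and the means were 7.68 ± 1.83% and 19.3 ± 4.04% (SD, n = 3 each). The 70 abundant transcripts made up most of both values, with 6.79%, 4.75% and 8.12% in wild type and 20.8%, 12.8% and 18.7% in the deletion. They carried 93.7% of the difference of 11.6 percentage points, and the other 2017 StringTie rows went from 1.13 ± 0.149% to 1.86 ± 0.193%. An exact two-sided permutation test of 3 against 3 libraries cannot give a p below 0.1. Shares are parts of one total, and RefSeq coding rows stood at 92.2 ± 1.87% in wild type and 80.4 ± 4.16% in the deletion. Mitochondrial features stood at 0.0287 ± 0.00536% and 0.0290 ± 0.0137%. The 510 rows of RNA genes, whose locus tags end in r, stood at 0.00779 ± 0.00152% and 0.0144 ± 0.00324%. MSTRG.3067 (YALI0_C24442r) has such a tag, with a mean of 81273 and a log2 fold change of 1.66 in the authors' deposited table. That mean is more than these rows together held, so their share leaves out most of its reads.

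**Figure D1:**
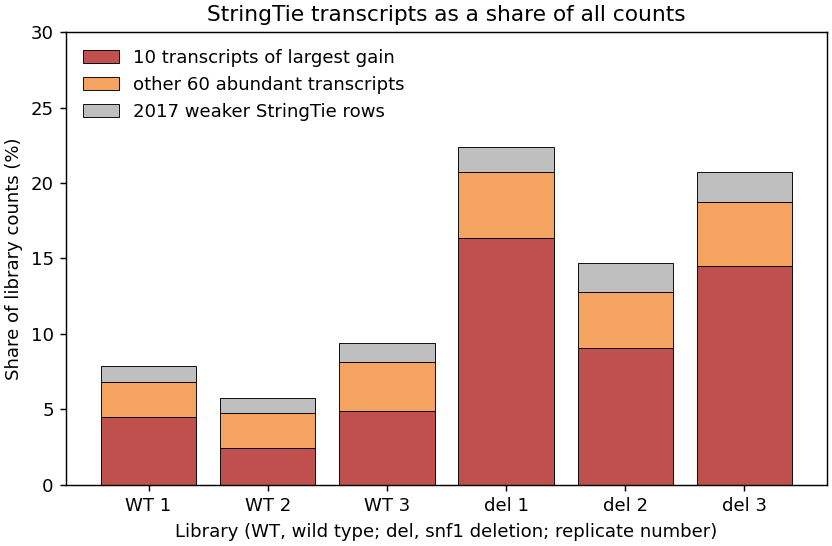
Share of all library counts (%) held by StringTie transcripts in each of the 6 libraries, stacked as the 10 transcripts of largest gain, the other 60 abundant transcripts and the 2017 weaker rows. The 10 leading transcripts hold 2.44% to 4.89% in wild type and 9.05% to 16.3% in the deletion.

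A few transcripts carried this difference. The 10 with the largest gain in share were also the 10 of highest mean level, and together they held 4.50%, 2.44% and 4.89% of counts in wild type against 16.3%, 9.05% and 14.5% in the deletion. These transcripts made up 80.7% of the StringTie difference. MSTRG.1936.1 alone made up 12.6% of it, the first 2 transcripts 25.1%, the first 4 47.7% and the first 6 61.4%. The other 60 members went from 2.61 ± 0.538% to 4.12 ± 0.372%. Among the 70 members, 50 gained share by a summed 12.2 points, and 20 lost share, summing to -1.33 points.

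MSTRG.1936.1 stood at 4761 CPM, 2443 CPM and 6263 CPM in wild type and at 22930.4 CPM, 11962 CPM and 22266 CPM in the deletion. MSTRG.3069.1 had 3462, 1739 and 4235 CPM in wild type and 23485 CPM, 10840.3 CPM and 18772 CPM in the deletion. In both, deletion replicate 2 was the lowest of its strain and still above all wild type libraries. MSTRG.5998.1 went from 3050.4 CPM, 1489 CPM and 3707 CPM to 22419 CPM, 9433 CPM and 18197 CPM. MSTRG.6000.1 went from 3528 CPM, 1619 CPM and 4414 CPM to 19325 CPM, 10631 CPM and 16483 CPM. These 4 transcripts gained 1.46, 1.46, 1.39 and 1.23 percentage points of the counts, and none of their groups overlapped.

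MSTRG.3034.1 stood at 3462, 1574 and 3418 CPM in wild type and at 14159, 7791 and 12383 CPM in the deletion. MSTRG.3526.1 stood at 2895, 1221 and 3179 CPM and at 12423, 5912 and 10622 CPM. Replicate 2 was the lowest of its strain in both, as in the first 4. MSTRG.3763.1 had 1386, 510.5 and 2360.4 CPM in wild type and 8555, 6305 and 7843 CPM in the deletion. MSTRG.805.1 had 1289, 523 and 1129 CPM and 6921, 5205 and 7239.7 CPM. These last 2 were more even within the deletion, with the highest library 1.36 and 1.39 times the lowest.

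These 8 transcripts rose in edgeR's quasi-likelihood test with Benjamini-Hochberg adjustment over all tested features, which scales libraries by TMM (a trimmed mean of the log ratios) and gives log2 fold changes of the deletion over wild type. The log2 fold change was 1.77 (SE 0.52, adjusted p = 0.0169) for MSTRG.1936.1, 2.18 (SE 0.53, adjusted p = 0.00585) for MSTRG.3069.1 and 2.30 (SE 0.54, adjusted p = 0.00493) for MSTRG.5998.1. It was 1.97 for MSTRG.6000.1, 1.71 for MSTRG.3034.1, 1.68 for MSTRG.3526.1, 2.11 for MSTRG.3763.1 and 2.40 for MSTRG.805.1, with SEs of 0.46 to 0.53. MSTRG.1936.1 missed the threshold with replicate 2 of wild type (adjusted p = 0.0516) or replicate 3 of the deletion (0.0664) left out. MSTRG.3034.1 missed it with deletion replicate 3 left out (adjusted p = 0.0554). MSTRG.3526.1 lost its call when any of 3 libraries was left out, wild type replicate 2 (adjusted p = 0.0611) and deletion replicates 1 (0.0577) and 3 (0.0640).

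The remaining 2 of the leading 10 did not pass. MSTRG.1809.1, the member of highest mean level, stood at 12375, 8452 and 13879 CPM in wild type and at 19444, 13979 and 17878 CPM in the deletion. The lowest deletion library lay just above the highest wild type library. After TMM scaling its log2 fold change was 0.23 (SE 0.47, adjusted p = 0.729). MSTRG.4845.1 stood at 8808, 4781 and 6284 CPM and at 13728, 8445 and 13324 CPM, with deletion replicate 2 below wild type replicate 1 (log2 fold change 0.51, SE 0.47, adjusted p = 0.414). Both were already abundant in wild type, and their shares of the counts were 0.553 and 0.521 percentage points higher in the deletion. TMM factors were 0.781 to 0.941 in wild type and 1.06 to 1.21 in the deletion, which makes a fold in TMM-scaled values smaller than the same fold in shares of the library total.

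**Figure D2:**
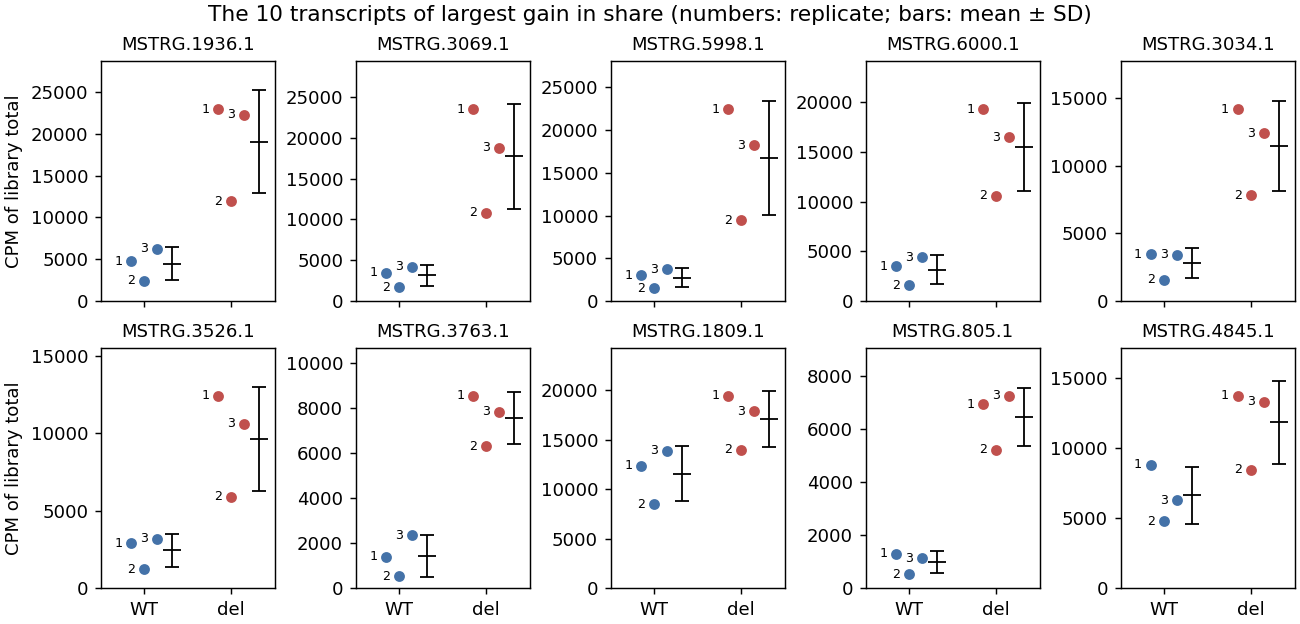
Level in CPM of the library total for the 10 transcripts of largest gain in share, with each point 1 library, numbered by replicate, and bars for mean ± SD (n = 3; WT, wild type; del, snf1 deletion). Replicate 2 is the lowest point in both strains for all 10, and the groups overlap for MSTRG.4845.1 and no other of them.

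The replicates were uneven in the same way across the leading transcripts. Deletion replicate 2 was the lowest deletion library and wild type replicate 2 the lowest wild type library in all 10. Over all 70 members the same held for 45.7% and 44.3%, and over all tested features for 34.8% and 53.2%. Relative to the wild type mean, the StringTie share was 14.7, 7.02 and 13.04 percentage points higher in deletion replicates 1, 2 and 3. The leading 10 carried 84.3%, 72.7% and 81.0% of those amounts. Within the deletion, the highest library was between 1.06 and 9.96 times the lowest over the members, with a median of 1.82.

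Some members ran opposite to the leading 10, with deletion replicate 2 the highest. MSTRG.3173.1 stood at 44.7, 445 and 136 CPM in the deletion, against 57.7, 87.3 and 123 CPM in wild type. MSTRG.7527.1 stood at 50.8, 378 and 75.1 CPM, against 133, 167 and 151 CPM. In both, deletion libraries lay on either side of the wild type range, and neither passed the test (adjusted p = 0.308 and 0.733, edgeR's quasi-likelihood test). With deletion replicate 2 left out, MSTRG.7527.1 changed by -1.61 on the log2 scale and passed (adjusted p = 0.00449), while MSTRG.3173.1 changed sign, to -0.34, and did not pass. These 2 were picked for their spread after their values were seen.

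**Figure D3:**
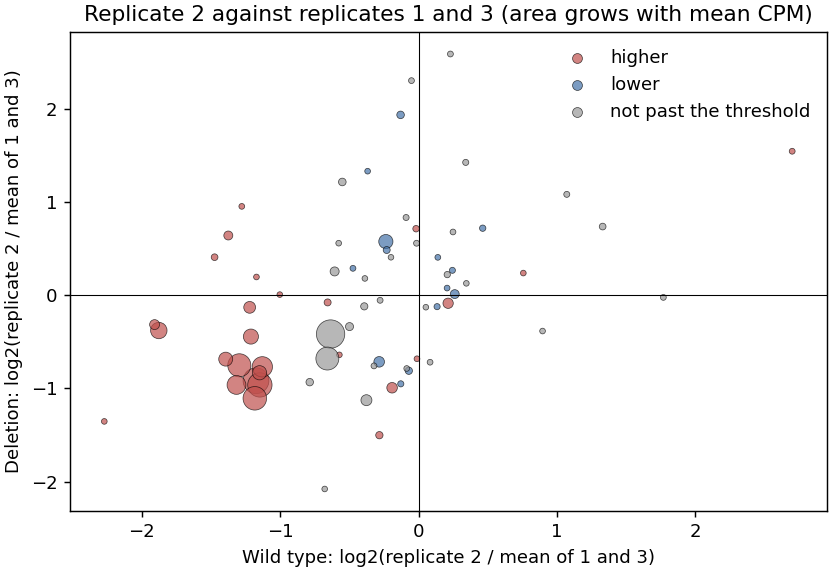
Replicate 2 of wild type (horizontal) and of the deletion (vertical) for each of the 70 transcripts, as the log2 ratio of its CPM to the mean of replicates 1 and 3 of the same strain, with point area growing with mean CPM and colour giving the result of edgeR's test. The 10 transcripts of largest gain, which are the 10 largest points, lie below 0 on both axes, and other members lie on either side.

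Several leading transcripts moved nearly in proportion to each other. Relative to MSTRG.1936.1, MSTRG.3526.1 stood between 0.477 and 0.608 over the 6 libraries, a range of 1.27-fold, while its own level spanned 10.2-fold. The same range was 1.33-fold for MSTRG.3034.1, 1.34-fold for MSTRG.6000.1, 1.51-fold for MSTRG.3069.1 and 1.65-fold for MSTRG.5998.1, whose levels spanned 9.00-fold to 15.1-fold. The mean proportion went from 0.705 in wild type to 0.925 in the deletion for MSTRG.3069.1 and from 0.614 to 0.861 for MSTRG.5998.1. For MSTRG.805.1 and MSTRG.3763.1 the range was 2.41-fold and 2.52-fold. MSTRG.4845.1 and MSTRG.1809.1 went from means of 1.60 and 2.76 times MSTRG.1936.1 in wild type to 0.634 and 0.940 times in the deletion. Reads of near-identical copies could have been split or left out in counting, so each of these values may hold reads of another copy, which was not tested.

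A RefSeq non-coding row moved with them. The row rna-XR_002432111.1 stood at 928, 433 and 1139 CPM in wild type and at 3781, 1728 and 3324 CPM in the deletion, with no overlap and replicate 2 lowest in each strain. Its log2 fold change was 1.52 (SE 0.47, adjusted p = 0.0233, edgeR's quasi-likelihood test). Its proportion to MSTRG.1936.1 was 0.195, 0.177 and 0.182 in wild type and 0.165, 0.145 and 0.149 in the deletion. Every deletion library was thus slightly below every wild type library. It did not match the RefSeq table of the W29 assembly ASM176148v1 by accession, so its RNA class is not given here. This row took the RefSeq non-coding class from 0.0926 ± 0.0367% to 0.315 ± 0.113% of counts, and the other 128 rows of the class held 0.00927 ± 0.00220% and 0.0207 ± 0.00502%.

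**Figure D4:**
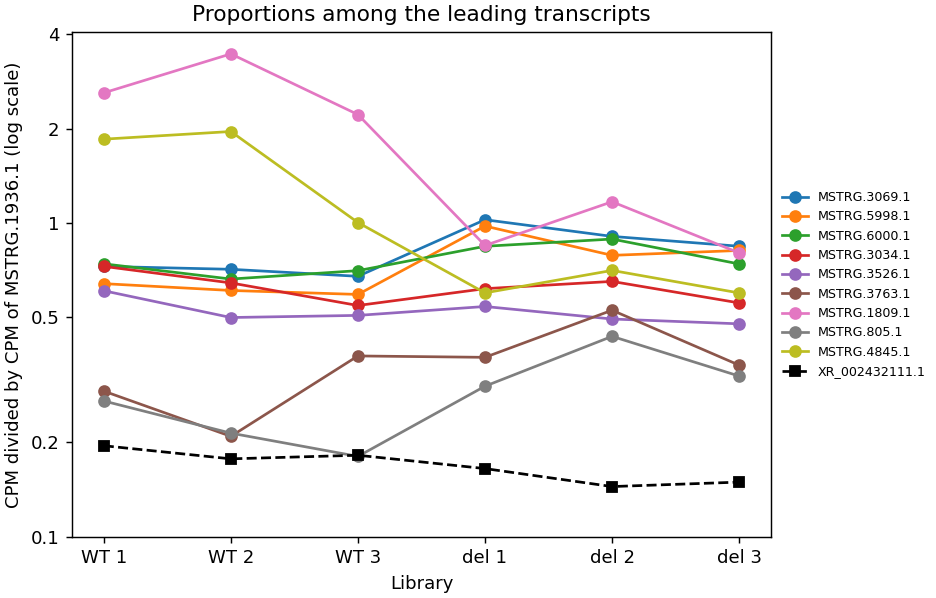
Level of each leading transcript and of the RefSeq non-coding row rna-XR_002432111.1 divided by the level of MSTRG.1936.1 in the same library, on a logarithmic axis. The lines of MSTRG.3526.1 and MSTRG.3034.1 are nearly level over the 6 libraries. The line of the non-coding row is slightly lower in every deletion library, and those of MSTRG.1809.1 and MSTRG.4845.1 are clearly lower in the deletion.

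MSTRG numbers follow the order of genes along the chromosomes, which places the members without coordinates. Over genes with a locus tag in the authors' deposited table, the Spearman correlation of MSTRG number and tag order was 0.9999 to 1.0 per chromosome. The start positions in that table do not follow the tags, so no coordinates are given. A chromosome end here means the lowest or highest MSTRG number listed for that chromosome in the authors' deposited table. The first number listed on chromosome A is 22, so StringTie rows can lie beyond such an end, and those rows were given no place. MSTRG.3069.1 has the first number listed on chromosome D and MSTRG.5998.1 the last on chromosome E. MSTRG.6000.1 lies 1 number from the first on chromosome F, MSTRG.1936.1 4 numbers from the first on chromosome C, and MSTRG.805.1 6 numbers from the last on chromosome A.

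Within 10 numbers of a chromosome end lay 10 of 70 members (14.3%), against 56 of 2087 StringTie rows (2.68%), a distance chosen after the values were seen. These 10 held 1.77%, 0.878% and 2.14% of wild type counts and 10.3%, 5.40% and 9.07% in the deletion. The other members there were MSTRG.7547.1, MSTRG.7549.1, MSTRG.5989.1, MSTRG.802.1 and MSTRG.4359.1, of which the first 3 rose and the last 2 did not pass. None of the 14 members that fell lay there, which says little, since only 39 of 1578 tested StringTie rows (2.47%) did. Of the 75 MSTRG genes of highest mean in the authors' deposited table, 11 also lay within 10 numbers of an end. These 75 include genes of members and genes with a locus tag. Among the 11 are the genes of MSTRG.1936.1, MSTRG.3069.1, MSTRG.5998.1, MSTRG.6000.1, MSTRG.805.1 and MSTRG.7547.1, so the sets overlap. MSTRG.3067 (YALI0_C24442r, the tag of an RNA gene) and MSTRG.5990 (YALI0_E35046g) are tagged genes near an end. A place near an end is thus not shown to be particular to the members. Leading transcripts also came from chromosome interiors, such as MSTRG.3526.1 on chromosome D and MSTRG.1809.1 on chromosome B. Which RNA any of them holds was not tested, because no sequence of them was used here.

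Over all 70 members, 27 rose, 14 fell and 29 did not pass at an adjusted p under 0.05. That is 38.6% higher and 20.0% lower, against 18.3% higher and 18.7% lower over all 7244 tested features. Weaker StringTie rows stood at 32.8% and 9.48%. Of the 27 members that rose, 8 had a wild type mean under 100 CPM, and of the 14 that fell, 8 had a deletion mean under 100 CPM. These members met the limit only through the strain in which they were high, so the counts over the members are not read against the other classes. Of the 47 members with a mean of at least 100 CPM in each strain, 19 rose and 6 fell. RefSeq coding rows of at least 100 mean CPM over all 6 libraries, another limit than that of the 47, stood at 12.3% and 30.2%. The median log2 fold change was 0.50 over the members, 0.71 over weaker StringTie rows, 0.04 over all tested features and -0.45 over those coding rows. In library-total CPM, 33 members (47.1%) lay wholly higher and 14 (20.0%) wholly lower in the deletion, against 35.4% and 16.1% of all tested features. All 41 members that passed were without overlap, and 6 without overlap did not pass.

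**Figure D5:**
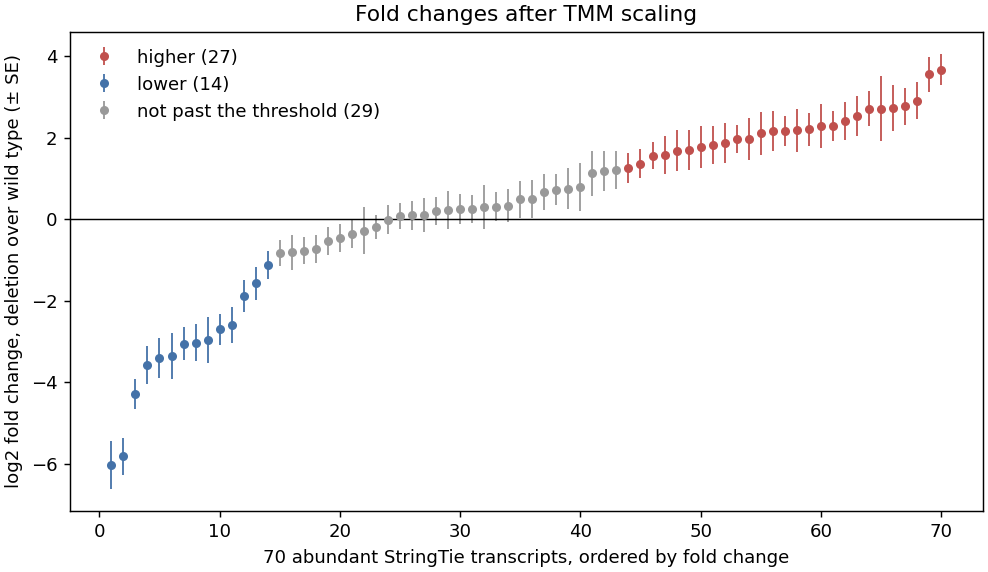
Log2 fold change (deletion over wild type, TMM-scaled, ± SE) of the 70 transcripts in rising order, coloured by the result of edgeR's quasi-likelihood test. The 27 higher members span 1.27 to 3.67 and the 14 lower ones -6.03 to -1.12.

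The 8 largest rises on the log2 scale are given next. Of these, MSTRG.6670.3, MSTRG.1136.1, MSTRG.7549.1 and MSTRG.5989.1 had wild type means of 14.4 CPM, 26.7 CPM, 28.5 CPM and 29.7 CPM and met the limit of 100 mean CPM only through the deletion, so they had to differ in order to be members. MSTRG.6670.3 stood at 18.8, 7.83 and 16.5 CPM in wild type and at 258, 250.3 and 180 CPM in the deletion (log2 fold change 3.67, SE 0.38, adjusted p = 1.19e-05, edgeR's quasi-likelihood test). MSTRG.1760.1 went from 150.2, 199.8 and 194 CPM to 2378, 2676 and 3305 CPM (3.56, SE 0.43, adjusted p = 3.86e-05). Both were even within the deletion, and all their deletion libraries stood far above all their wild type libraries. MSTRG.3816.1 went from 413, 215 and 586 CPM to 4076, 3565 and 3727 CPM, a log2 fold change of 2.90. MSTRG.2647.1 went from 308 CPM, 102 CPM and 219 CPM to 1612, 2371 and 1429.9 CPM, a log2 fold change of 2.77. Of these 4, MSTRG.3816.1 and MSTRG.1760.1 added most to the share, 0.338 and 0.260 percentage points.

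MSTRG.7547.1 stood at 868, 438 and 1071 CPM in wild type and at 6971, 3748 and 6373 CPM in the deletion (log2 fold change 2.53, SE 0.48). MSTRG.1136.1 stood at 28.4, 7.52 and 44.1 CPM and at 313, 105 and 225 CPM (2.73, SE 0.56). Both had replicate 2 lowest in each strain, as the leading 10 had. MSTRG.7549.1, at 36.9, 14.6 and 34.1 CPM in wild type, stood at 116, 353 and 248 CPM in the deletion (2.71, SE 0.43). MSTRG.5989.1 stood at 6.77, 68.1 and 14.2 CPM and at 82.7, 499 and 260 CPM (2.71, SE 0.79, adjusted p = 0.0165, edgeR's quasi-likelihood test). For it, replicate 2 was the highest in each strain. Its log2 fold change was 4.43 without wild type replicate 2 and 2.06 without deletion replicate 2, and it did not pass when wild type replicate 1 (adjusted p = 0.0657) or 3 (0.105) was left out.

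Beyond the naming rule, 3 other members lost their call with a library left out. MSTRG.6582.1 (log2 fold change 1.58) lost it with replicate 1 of wild type (adjusted p = 0.0650) or of the deletion (0.0907) left out. MSTRG.6076.1 (1.27) lost it without deletion replicate 3 (adjusted p = 0.0584). MSTRG.3908.1, a fall of -1.12 on the log2 scale, had an adjusted p of 0.0748 and 0.0687 with wild type replicates 2 and 3 left out in turn, and of 0.0735 and 0.0894 with deletion replicates 1 and 3. MSTRG.3908.1 also missed the threshold with library size only (log2 fold change -0.73, adjusted p = 0.102) and upper-quartile scaling (-0.75, adjusted p = 0.0885).

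The 14 members that fell held 1.27%, 1.45% and 1.88% of wild type counts and 0.146%, 0.260% and 0.253% in the deletion. MSTRG.4286.1 fell from wild type levels of 5001, 2729 and 1645 CPM down to 67.7, 42.6 and 72.1 CPM in the mutant (log2 fold change -6.03, SE 0.59, adjusted p = 6.76e-06, edgeR's quasi-likelihood test). Its mean was 51.4-fold lower. MSTRG.842.1 fell from 184, 284 and 332 CPM to 3.61, 7.46 and 7.64 CPM (-5.81, SE 0.46, adjusted p = 1.45e-06). MSTRG.1880.1 lost the most share, with a change of -0.459 percentage points, from 2998, 4938 and 8633 CPM to 414, 1196 and 1191 CPM (-2.95, SE 0.56). In all 3, even the lowest wild type library stood above the highest deletion library. The deletion means of MSTRG.4286.1 and MSTRG.842.1, 60.8 CPM and 6.24 CPM, were under the limit of 100 CPM, which both met through wild type.

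MSTRG.6706.1 fell from 1075, 1997 and 2256 CPM to 170.5, 196 and 218 CPM, a log2 fold change of -3.57. MSTRG.4935.1, at 206, 279 and 278 CPM in wild type, fell to 15.6, 17.7 and 17.9 CPM (-4.28). Both were even within the deletion. MSTRG.529.1 fell from 749, 967 and 1367 CPM to 73.2, 263 and 64.2 CPM, and its log2 fold change of -3.35 was -4.23 without deletion replicate 2. MSTRG.2127.1 changed by -3.40, MSTRG.4834.1 by -3.06 and MSTRG.4089.1 by -3.02 on the log2 scale. The deletion means of MSTRG.4935.1, MSTRG.2127.1 and MSTRG.4834.1 were 17.1 CPM, 48.5 CPM and 59.9 CPM, under the membership limit. They met that limit only through wild type, so they had to be lower in the deletion to be members. Among the lower members, deletion replicate 2 was the lowest deletion library in 3 of 14.

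The 29 members that did not pass held 2.45 ± 0.476% of wild type counts and 3.95 ± 0.571% of those in the deletion, with MSTRG.1809.1 and MSTRG.4845.1 as their most abundant. At an unadjusted p under 0.05 stood 4 of them, MSTRG.5814.1, MSTRG.6712.2, MSTRG.4359.1 and MSTRG.4152.1. MSTRG.5814.1 stood at 737, 747 and 1200.5 CPM in wild type and at 3906, 1444 and 2399.8 CPM in the deletion (log2 fold change 1.20, SE 0.47, adjusted p = 0.0597, edgeR's quasi-likelihood test). MSTRG.5814.1 passed with library size only (adjusted p = 0.0167), upper-quartile scaling (0.0168), the DESeq2 test (0.0171) and deletion replicate 2 left out (0.0181). In all, 10 of the 29 passed under at least 1 alternative. Just inside the limit of 100 mean CPM lay MSTRG.4152.1 (103 CPM) and MSTRG.6213.1 (103 CPM). Just outside lay MSTRG.7418.1 (95.7 CPM) and MSTRG.922.1 (90.5 CPM), and the first of these went from a mean of 172 CPM to 18.9 CPM and the second from 26.0 CPM to 155 CPM.

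No member gained a gene name from the authors' deposited table. Of the 70 MSTRG genes, 41 are in the authors' deposited table, 25 as higher and 16 as lower, or 35.7% and 22.9%. The 1854 MSTRG genes with a StringTie row are listed there as higher for 27.0% and as lower for 13.3%. The Gene ID in the authors' deposited table is 0 for 29 of the 41 and blank for the other 12, and the Gene name is blank for all 41. Locus tags are rare for such genes in the authors' deposited table, at 36 of 1854 or 1.94%. Only 747 of the 1854 are listed there at all, so the share among listed genes is 36 of 747. None of the gene lists drawn up for alkane use, peroxisomes, ribosomal proteins, glycolysis or heat shock could therefore be matched to a member.

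The sign was the same in the edgeR test for all 41, which is no independent evidence because the libraries are the same. Of them, 24 were among the 27 that rose, 14 were the 14 that fell, and 3 did not pass the edgeR test. The 3 that rose and are not in the authors' deposited table were MSTRG.5989.1, MSTRG.6076.1 and MSTRG.7259.1. MSTRG.1809.1 and MSTRG.4845.1 are not in it either. A count row held a median of 118.5% of the gene's mean in the authors' deposited table, on another scaling, and 8 rows held under 90%. MSTRG.6670.3 held 7.96% of it, and its gene is at a log2 fold change of 1.68 in the authors' deposited table against 3.67 for the row. A second row of that gene, MSTRG.6670.1, stood at a mean of 20.03 ± 8.01 CPM in wild type against 68.0 ± 28.7 CPM (log2 fold change 1.41, SE 0.35, adjusted p = 0.00749, edgeR's quasi-likelihood test). The remaining StringTie row of the gene, MSTRG.6670.2, had 0 counts in every library. The StringTie rows thus held a small part of that gene's mean, and where the rest lay was not tested. MSTRG.7547.1 held 62.0% and MSTRG.805.1 71.3% of the mean of their gene in the authors' deposited table.

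Neighbouring coding genes, read from the order of rows, shared the call of members about as often as that of weaker StringTie rows. Over all tested features, 18.3% were higher and 18.7% lower. The share expected for at least 1 of 2 neighbours was not worked out, so no joint movement with neighbours is shown. Of 20 rising members with a coding row on both sides, 7 (35.0%) had a neighbour that rose, against 36.9% of weaker StringTie rows that rose. Of 14 members that fell, 7 had a neighbour that fell and 3 had a neighbour that rose and none that fell, while 58.6% of weaker falling rows had a falling neighbour. MSTRG.1809.1 stands between rna-XM_501170.1, which rose by 2.18 on the log2 scale, and rna-XM_501171.1, which fell by 0.90.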

How the data were processed

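Whole-number counts per transcript were deposited by the authors for each of the 6 libraries. Per the submitters' processing notes, reads went through DESeq2 2.11.40.7, StringTie, HISAT2 2.2.1 and Trimmomatic 0.38.0, listed in no order. Which genome build, annotation and counting options they used is not given in the sources used here. A table of 2840 genes, also deposited by the authors, holds the mean of normalised counts (a signal), log2 fold changes (entered as a score, since 1 line without a gene holds an odd value and was dropped), standard errors and adjusted p-values. A member was linked to it by its MSTRG gene number.

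The software was edgeR 4.0.16 with limma 3.58.1 and, as an alternative, DESeq2 1.42.0, in R 4.3.3. All 6 libraries entered edgeR's quasi-likelihood fit with TMM scaling, filterByExpr defaults (minimum count 10, minimum total 15), no covariates and Benjamini-Hochberg adjustment over 7244 features at 0.05. SEs were obtained by dividing the absolute log2 fold change by the root of the F statistic. All 70 members were tested. The scripts were tested on data simulated with 1 common dispersion for all features. The fit recovered 10 of 67 simulated log2 changes of size 1, 59 of 67 of size 2 and 66 of 66 of size 4, with 5 false calls. Changes of size 1 were thus mostly missed there, and a member that did not pass is not shown to be unchanged. Libraries of a strain differed by more than sampling noise (chi-square of 308 or more per feature). Counts are not length-normalised, and at 134 counts or more per member and library the replicate spread (biological coefficient of variation 0.363) exceeds counting error.

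The members and lists were chosen with earlier results of these data known. The naming rule took the 10 members of highest mean CPM, the 10 of largest gain and 5 of largest loss in share, the 8 largest rises and 8 largest falls among members past the threshold without overlap, those with a gene name, and the 2 on each side of the limit. Alternatives covered scaling, filters, DESeq2, the membership limit, a replicate block and leaving out each library.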

Additional observations from a re-analysis of the deposited data

How the results depend on the processing

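Of the members, 21 of 27 that rose and 13 of 14 that fell kept their call under every scaling, filter, test and left-out library tried. With a membership limit of 50 mean CPM, 52 members rose and 24 fell, with 200 mean CPM 19 of 39 rose and 9 fell, and with 100 mean CPM in each strain 19 of 47 rose and 6 fell. The last limit leaves out, by construction, rows that are low in 1 strain. Leaving out 1 library gave 23 to 29 members higher and 13 to 18 lower, 873 to 1351 features higher and 951 to 1366 lower over all features, and a StringTie share 10.0 to 13.9 percentage points higher in the deletion. The 873 came without deletion replicate 3. Upper-quartile scaling gave 2005 features higher. Rises made up 65.9% of member calls with TMM, 71.1% with library size only, 70.5% under upper-quartile scaling, and 49.5%, 67.5% and 67.5% of calls over all features. In the latter pair the median over all features shifted by 0.36 and 0.35 (log2). Some members met the limit of 100 mean CPM only through 1 strain, so their share of rises is not read against that of all features. The replicate block gave 28 members higher and 14 lower, and 1412 and 1342 over all features. Same-numbered libraries deviated together with correlations of 0.0507, 0.146 and 0.141, against -0.16 to 0.0828 for libraries of different numbers. Deletion replicates 2 and 3 correlated best with the wild type library of their own number, and deletion replicate 1 with wild type replicate 3. These values are small and do not settle whether replicate numbers pair the samples. MSTRG.5989.1 did not pass in DESeq2 (adjusted p = 0.0601). Of the 29 members that did not pass, 10 did so under an alternative. With library size only, upper-quartile scaling or both these were MSTRG.1674.1, MSTRG.2265.3, MSTRG.5814.1, MSTRG.6712.2 and MSTRG.7424.1 (the last also with the replicate block, adjusted p = 0.0164), and in DESeq2 MSTRG.4359.1 and MSTRG.5814.1. With wild type replicate 1 left out, MSTRG.953.1, MSTRG.4152.1, MSTRG.4359.1 and MSTRG.6097.1 passed (adjusted p = 0.0293, 0.0333, 0.0215 and 0.0423). With wild type replicate 2 left out, MSTRG.1674.1 and MSTRG.7424.1 passed (0.00354 and 0.0223), and with deletion replicate 2 left out, MSTRG.5814.1, MSTRG.6712.2 and MSTRG.7527.1 (0.0181, 0.00363 and 0.00449). Signs changed for 11 of the 29 members that did not pass, and the cause was not tested. With library size only, the log2 fold change was 0.38 for MSTRG.2108.1, 0.00068 for MSTRG.2920.1, 0.17 for MSTRG.5294.1 and 0.16 for MSTRG.7527.1. With upper-quartile scaling it was 0.36 for MSTRG.2108.1, 0.17 for MSTRG.5294.1 and 0.12 for MSTRG.7527.1. For MSTRG.2108.1 it was 0.0215 with at least 1 CPM in 3 libraries and 0.0656 with the replicate block. With 1 library left out, it ranged from -0.13 to 0.52 for MSTRG.931.1, -0.12 to 0.39 for MSTRG.1187.1, -0.0038 to 0.43 for MSTRG.1334.1, -0.29 to 0.17 for MSTRG.2108.1, -0.19 to 0.49 for MSTRG.2381.1, -0.34 to 1.28 for MSTRG.3173.1, -0.12 to 0.33 for MSTRG.6225.1, -0.11 to 0.90 for MSTRG.7135.1 and -1.61 to 0.16 for MSTRG.7527.1. Depth limited none of the members, and 3 libraries per strain limit the precision.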
